A study of Homo sapiens with 40 samples.

Results

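The early response to 5 cGy of X-rays alone was followed on 10 of the 40 arrays of the series. The irradiated side was the 6 arrays titled 3 h or 6 h after 5 cGy (3 arrays at each time), and the control side was the 4 arrays titled radiation sham. All cells were AG01522, a line of normal human skin fibroblasts, grown to full confluence before treatment, and every group shared this 1 line. The sham cultures lay under a lead mask and were coded as 0 h, so no unirradiated array was collected at 3 h or 6 h, and the effect of 5 cGy cannot be told apart from that of time in culture. Groups used for comparison were 2 Gy alone at the same times (6 arrays), 5 cGy alone at 12 h and 24 h (6 arrays), and, for a few genes, cultures that received the challenge of 2 Gy 12 h after the 5 cGy (5 cGy + 2 Gy). Per the methods, both doses were given by the same machine at different tube voltages and dose rates, so a contrast of 2 Gy with 5 cGy is not one of dose alone. The question for this dose is which transcripts move in the hours after a priming exposure, before any challenge dose.

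Ionizing radiation breaks DNA, and the kinases that sense the breaks stabilise p53, a transcription factor that switches on cell cycle arrest (CDKN1A), its own negative regulators (MDM2, PPM1D), repair, and cell death genes. A second stress pathway, the integrated stress response, passes through the transcription factors ATF4 and CHOP to genes such as CHAC1 and SESN2. Immediate early genes such as FOS form the fastest layer, switched on by MAP kinases and switched off again within hours.

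All values are log2 intensities after RMA (robust multi-array average, which corrects the background, aligns the arrays and sums up the probes of a probe set). A difference of 1 is therefore 2-fold. Array medians lay between 5.62 and 5.70 over the series. Among the 10 arrays, sham replicate 1 stood apart, with a root mean square deviation from its group mean of 0.336 over all genes, against 0.135 to 0.224 on the other 9. Fibroblast markers were high in every group, with a median level of 12.7 to 12.8 over 12 genes and a summed level of 16.83 to 17.04 in sham, 16.94 to 17 at 3 h and 16.85 to 17.03 at 6 h. Keratinocyte markers summed to 10.6 to 10.84 in sham and 10.72 to 10.86 after 5 cGy, with 8 of 11 under a level of 6. For leukocytes, 9 or 10 of 11 markers were under 6. Smooth muscle and myofibroblast markers were also high, with 0 of 9 under 6 and a median level of 10.8 to 10.9. The range of the summed level after 5 cGy overlapped that of sham for all 7 cell type lists.

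The mean of 3 h and 6 h after 5 cGy was first set against sham. No transcript passed the test, and no gene moved by as much as 2-fold. The range of pooled changes over 18244 genes ran from -0.95 for FOS, the AP-1 subunit that heads the immediate early genes, to 0.60 for CHAC1, a glutathione-degrading enzyme. The genes with the smallest p were a mixed set, with the zinc finger factor RREB1 and the coactivator ZMIZ1 on the higher side and the nitric oxide synthase NOS1 and the MAP kinase phosphatase DUSP2 on the lower side. In the limma model 0 of 18244 genes had an adjusted p under 0.05 (0% in each direction), and 861 (4.72%) had an unadjusted p under 0.05, of which 448 (2.46%) were higher and 413 (2.26%) lower. The median absolute change was 0.07, against a median standard error (SE) of 0.11. The 6 irradiated arrays lay entirely above the 4 sham arrays for 33 genes (0.181%) and entirely below for 71 (0.389%). Without sham replicate 1 the count stayed at 0, and without sham replicate 3 it was 1, the small nucleolar RNA SNORA74A (0.51, adjusted p = 0.0175, with a range of 0.0175 to 1 over 18 alternatives).

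The 8 smallest p in each direction are given as genes that did not pass, with adjusted p from 0.517 to 0.757 and absolute changes from 0.28 to 0.49. The smallest p was that of C15orf32. It measured 4.07, 4.28, 4.23 and 4.39 on the sham arrays, 3.88, 3.84 and 3.77 at 3 h, and 3.56, 3.83 and 3.86 at 6 h after 5 cGy. All irradiated arrays were below all sham arrays, by -0.45 ± 0.09 (SE, adjusted p = 0.517), at a level near the bottom of the scale. MORN1 measured 5.75, 5.77, 5.65 and 5.77 in sham, 5.21, 5.23 and 5.37 at 3 h, and 5.56, 5.37 and 5.50 at 6 h. Its groups did not overlap either (-0.36 ± 0.09, adjusted p = 0.54). NOS1, which encodes neuronal nitric oxide synthase, measured 6.35 to 6.49 in sham and 5.95 to 6.26 after 5 cGy (-0.29 ± 0.07, adjusted p = 0.54). BICDL2 (-0.40 ± 0.09), ERICH3 (-0.28 ± 0.07), DNAAF19 (-0.45 ± 0.12), DUSP2 (-0.44 ± 0.12) and the germline factor TDRD1 (-0.34 ± 0.09) complete the lower side.

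On the higher side, RREB1, a zinc finger factor named for its binding to a Ras-responsive element, had the highest level among those of these 16 genes whose groups did not overlap. It measured 9.16, 9.46, 9.45 and 9.39 in sham, 9.55, 9.54 and 9.63 at 3 h, and 9.98, 9.75 and 9.56 at 6 h (0.30 ± 0.08, adjusted p = 0.757). PAGE5, of a family of cancer-testis antigens, measured 5.54, 5.25, 5.51 and 4.95 in sham, 5.95, 5.72 and 5.83 at 3 h, and 5.65, 6.10 and 5.57 at 6 h (0.49 ± 0.11, adjusted p = 0.54). The gap between its groups was narrow, with the lowest irradiated array just above the highest sham array. ZMIZ1, a coactivator related to the PIAS proteins, measured 10.73, 10.47, 10.96 and 10.79 in sham, 10.86, 10.81 and 11.02 at 3 h, and 11.33, 11.26 and 11.25 at 6 h (0.35 ± 0.08). Only its 6 h arrays were clear of sham. CCER1 (0.32 ± 0.07), SNORA74A (0.38 ± 0.09), the calcium release channel RYR2 (0.44 ± 0.11), ZNF77 (0.40 ± 0.10) and LIPJ (0.36 ± 0.09) were the others. Of these 16 genes 9 had groups that did not overlap, and 11 had a mean level under 6, the level under which most markers of other cell types lay. Other probe sets existed for 10 of the 16. Of these 25 probe sets 11 moved the same way, 3 of them at an unadjusted p under 0.05, and 1 moved the opposite way at that p.

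**Figure D1:**
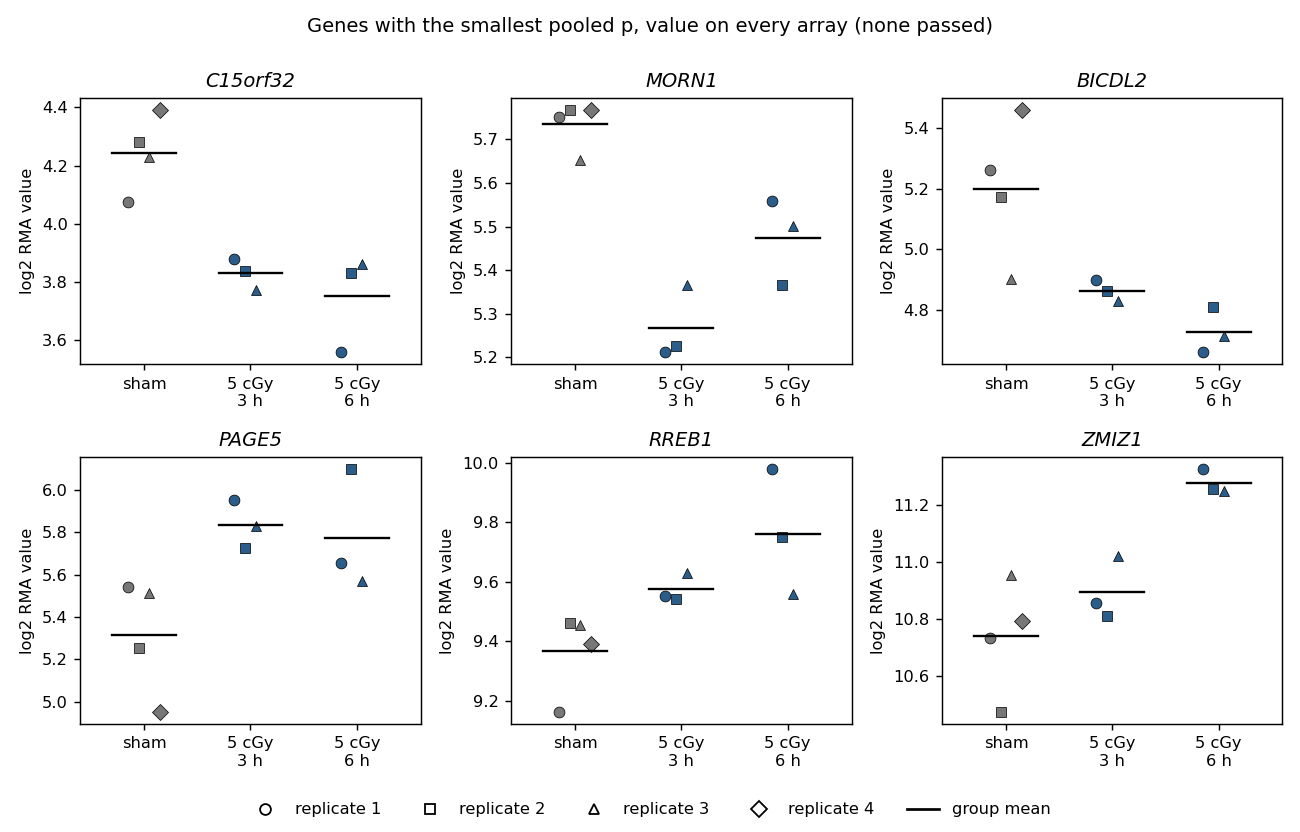
Log2 RMA value of 6 of the genes with the smallest pooled p on the 4 sham arrays and the 3 arrays each at 3 h and 6 h after 5 cGy, with symbols for replicate numbers and bars for group means. C15orf32, MORN1 and BICDL2 lay lower on all 6 irradiated arrays, PAGE5 and RREB1 higher, and ZMIZ1 was clear of sham at 6 h only; none passed the test.

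The times were then taken apart. Against sham, 0 genes were called at 3 h (0%), with 643 (3.52%) at an unadjusted p under 0.05 (1.69% higher and 1.83% lower), and 0 at 6 h (0%), with 1084 (5.94%, of which 3.31% higher and 2.64% lower). A joint F test, which asks for a change at either time, called 1 gene (0.00548%, with 913 or 5% at an unadjusted p under 0.05), and so did the direct difference of 6 h minus 3 h (0.00548%, with 846 or 4.64%, of which 2.15% higher and 2.48% lower). It was the same gene in both, ZNF425, which encodes a zinc finger protein of the KRAB type. ZNF425 measured 5.92, 5.43, 5.82 and 5.96 in sham, 5.11, 5.13 and 5.80 at 3 h, and 6.58, 6.42 and 6.56 at 6 h. The 6 h arrays lay above all sham and all 3 h arrays, while 2 of the 3 h arrays lay below all sham arrays. From 3 h to 6 h it rose by 1.17 ± 0.19 (95% confidence interval 0.79 to 1.55, adjusted p = 0.00822), and the joint test gave an adjusted p = 0.0355. Its opposite changes at 3 h (-0.44) and 6 h (0.74) left a pooled change of 0.15 ± 0.15. With the replicate number as a block, 6 h minus 3 h called 13 genes (7 higher and 6 lower), ZNF425 among them (adjusted p = 0.000483).

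The call of ZNF425 depended on single arrays and on the pooled spread. The adjusted p of 6 h minus 3 h ran from 0.000483 to 0.551 over 13 alternatives, of which 7 kept the call. It was 0.551 on the 6 arrays alone, 0.125 with the mean of its probe sets (0.69), and 0.0912, 0.264, 0.0661 and 0.109 without 5 cGy 3 h replicate 1 or 2 or 6 h replicate 1 or 3. The other probe set of ZNF425 moved by 0.20 in the same direction.

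The next smallest p values of the joint test did not pass in the main model, which has no replicate block and no array weights. With the block DUSP2 (adjusted p = 0.0297), DCP1B (0.00721), LIPJ (0.0292) and ZMIZ1 (0.0274) passed, though the numbers were not taken to pair sham with 6 h. With array weights instead, DUSP2 (adjusted p = 0.0225), DCP1B (0.011) and ZNF232 (0.011) passed. These 3 also passed without sham replicate 1 (adjusted p = 0.0401, 0.0283 and 0.0401), and ZMIZ1 passed without sham replicate 3 (0.0299). DUSP2, a nuclear phosphatase that switches off MAP kinases, measured 7.21, 7.27, 7.35 and 7.62 in sham, 7.43, 7.13 and 7.18 at 3 h, and 6.74, 6.33 and 6.75 at 6 h (joint adjusted p = 0.0859). Its 6 h arrays were below all others. DCP1B, a cofactor of mRNA decapping, measured 8.33, 7.99, 8.15 and 8.19 in sham, 8.07, 8.04 and 8.22 at 3 h, and 8.64, 8.49 and 8.59 at 6 h (joint adjusted p = 0.0859), though its other probe set moved by -0.18 from 3 h to 6 h. LIPJ stood out at 3 h only (3.93, 4.02 and 3.69, against 3.19 to 3.39 in sham and 3.38 to 3.46 at 6 h, joint adjusted p = 0.0859). The zinc finger gene ZNF232 ran from 6.89 to 7.22 at 3 h and was at 7.56 or above at 6 h, and all 4 of its other probe sets pointed the same way (joint adjusted p = 0.177). ZMIZ1 was the other gene of the 6 (joint adjusted p = 0.0859). For 6 h minus 3 h, DCP1B and ZNF232 did not pass (adjusted p = 0.0977 for each), but passed with the replicate block (adjusted p = 0.00696 and 0.036).

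Among the lists, the integrated stress response held the largest rises between the times. DDIT4, which encodes the mTOR inhibitor REDD1, measured 10.17, 8.21, 9.62 and 10.07 in sham, 8.25, 8.28 and 10.02 at 3 h, and 11.08, 11.15 and 11.67 at 6 h after 5 cGy. The 6 h arrays were above all others, and both the sham and the 3 h arrays were widely spread (SD 0.903 and 1.01). The difference of 6 h minus 3 h was 2.45 ± 0.53 (interval 1.38 to 3.52, adjusted p = 0.162), and it passed with the replicate block (adjusted p = 0.00628). CHAC1 measured 8.04, 6.94, 7.25 and 7.42 in sham, 7.45, 7.56 and 7.27 at 3 h, and 8.30, 8.79 and 8.72 at 6 h, again with no overlap of 6 h with the rest (1.18 ± 0.29 for 6 h minus 3 h, adjusted p = 0.326). DDIT3, which encodes CHOP, stood at 6.50 to 6.81 in sham, 6.28 to 6.75 at 3 h, and 7.42, 7.22 and 7.87 at 6 h (0.95 ± 0.25, adjusted p = 0.326). SESN2, a sestrin that is a target of p53 as well as of ATF4, stood at 8.41 to 8.94 in sham, 8.28, 9.07 and 8.68 at 3 h, and 9.38, 9.68 and 9.61 at 6 h (0.88 ± 0.24, adjusted p = 0.335). None of the 4 passed in the main model, and DDIT4 was the only one of them that passed with the block (adjusted p = 0.118 for SESN2). Of the list of 30 integrated stress and unfolded protein response genes, these 4 were the only ones higher and XBP1 (-0.44 ± 0.15) the only one lower at an unadjusted p under 0.05 for 6 h minus 3 h (background 2.15% higher and 2.48% lower). Over the list 14 values were above 0 and 16 below, with a median of -0.03 against -0.00 over all genes. TRIB3, another ATF4 target, moved by -0.26 ± 0.43. CHAC1's other, dimmer probe set gave no pooled rise (-0.08).

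The promoters of ZNF425, the only gene called, and of DDIT4 and CHAC1, the pair of stress genes with the largest differences between the times, are shown for these differences. They run from 250 bases before to 50 after the transcript start and come from RefSeq (GRCh38.p14), in which all 5 genes examined (DDIT3 and SESN2 besides) were found. Capitals mark matches on either strand to TGATGNAA, the C/EBP-ATF response element that ATF4 and CHOP can bind, and to CCAAT, the box bound by NF-Y; the motifs do not overlap in these windows.
ZNF425 (chr7:149126275-149126574, minus strand): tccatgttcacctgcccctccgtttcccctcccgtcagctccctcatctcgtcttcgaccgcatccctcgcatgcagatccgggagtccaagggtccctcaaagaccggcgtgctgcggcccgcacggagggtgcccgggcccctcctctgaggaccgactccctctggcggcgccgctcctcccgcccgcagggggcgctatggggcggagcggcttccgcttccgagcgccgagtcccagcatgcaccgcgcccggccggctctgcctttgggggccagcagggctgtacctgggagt
DDIT4 (chr10:72273674-72273973, plus strand): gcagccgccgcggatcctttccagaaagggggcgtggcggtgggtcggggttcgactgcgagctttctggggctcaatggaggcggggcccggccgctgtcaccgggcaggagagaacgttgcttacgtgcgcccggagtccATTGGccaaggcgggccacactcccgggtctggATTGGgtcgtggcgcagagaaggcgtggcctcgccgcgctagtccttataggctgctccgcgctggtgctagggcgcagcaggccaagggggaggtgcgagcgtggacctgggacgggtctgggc
CHAC1 (chr15:40953221-40953520, plus strand): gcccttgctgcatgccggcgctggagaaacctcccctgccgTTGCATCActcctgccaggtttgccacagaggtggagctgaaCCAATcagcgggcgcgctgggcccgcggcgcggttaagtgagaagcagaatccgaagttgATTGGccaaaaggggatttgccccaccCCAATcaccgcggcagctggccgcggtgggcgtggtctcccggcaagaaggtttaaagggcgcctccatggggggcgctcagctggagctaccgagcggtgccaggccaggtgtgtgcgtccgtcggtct
TGATGNAA was found once in CHAC1, on the minus strand at position -209 from the transcript start, and in none of the other 4 promoters. It occurs in 3.62% of all 35116 promoters. CCAAT had 3 matches in CHAC1 and 2 each in DDIT4, DDIT3 and SESN2, none in ZNF425, and occurs in 34.6% of all promoters. DDIT3 had 2 promoter windows, of which only the first listed was scanned. These matches describe letters in the window and not binding.

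The same step from 3 h to 6 h was looked up after 2 Gy and after 5 cGy + 2 Gy, on arrays that share none with the 5 cGy groups, a comparison added after the 5 cGy values were seen. ZNF425 was higher at 6 h by 0.94 ± 0.19 after 2 Gy (adjusted p = 0.0179) and by 1.13 ± 0.19 after 5 cGy + 2 Gy (adjusted p = 0.00314). DDIT4 was higher by 2.29 ± 0.53 (adjusted p = 0.0431) and 1.76 ± 0.53 (adjusted p = 0.311), and DDIT3 by 1.18 ± 0.25 (adjusted p = 0.0293) and 1.19 ± 0.25 (adjusted p = 0.046). CHAC1 was higher by 1.11 ± 0.29 (adjusted p = 0.0657, and 0.0217 with the replicate block) and 1.25 ± 0.29 (adjusted p = 0.113). SESN2 was the exception, at 9.40, 9.68 and 9.65 already at 3 h after 2 Gy and 9.17, 9.45 and 9.62 at 6 h (-0.16 ± 0.24). The difference between the 2 time steps of SESN2 was -1.04 ± 0.34 and did not pass (adjusted p = 0.663). In all, 88 genes (0.482%, 31 higher or 0.17% and 57 lower or 0.312%) were called for 6 h minus 3 h after 2 Gy, with 3466 (19%) at an unadjusted p under 0.05. After 5 cGy + 2 Gy 16 were called (0.0877%, 10 higher or 0.0548% and 6 lower or 0.0329%), with 1724 (9.45%) at that p. With the replicate block 1228 were called after 2 Gy. The GAPDH 3' minus 5' difference, a usual measure of RNA quality, was 0.384 to 0.675 at 3 h and 0.229 to 0.402 at 6 h after 2 Gy, against 0.317 to 0.408 on the 6 early 5 cGy arrays. With it as a covariate the count after 2 Gy was 41, of which 30 were among the 88. ZNF425 (adjusted p = 0.0489) was then still called, and DDIT4 (0.093) and DDIT3 (0.0849) were not. However, the difference between the time steps of 2 Gy and 5 cGy called 0 (0%, with 1232 or 6.75% at an unadjusted p under 0.05). Across all genes the time step after 5 cGy correlated with that after 2 Gy at r = 0.319 and with that after 5 cGy + 2 Gy at r = 0.345, over 18244 genes that are not independent. Of the 846 genes with an unadjusted p under 0.05 after 5 cGy, 629 (74.3%) had the same sign after 2 Gy, against 57.7% of all genes. The groups share replicate numbers and culture times.

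**Figure D2:**
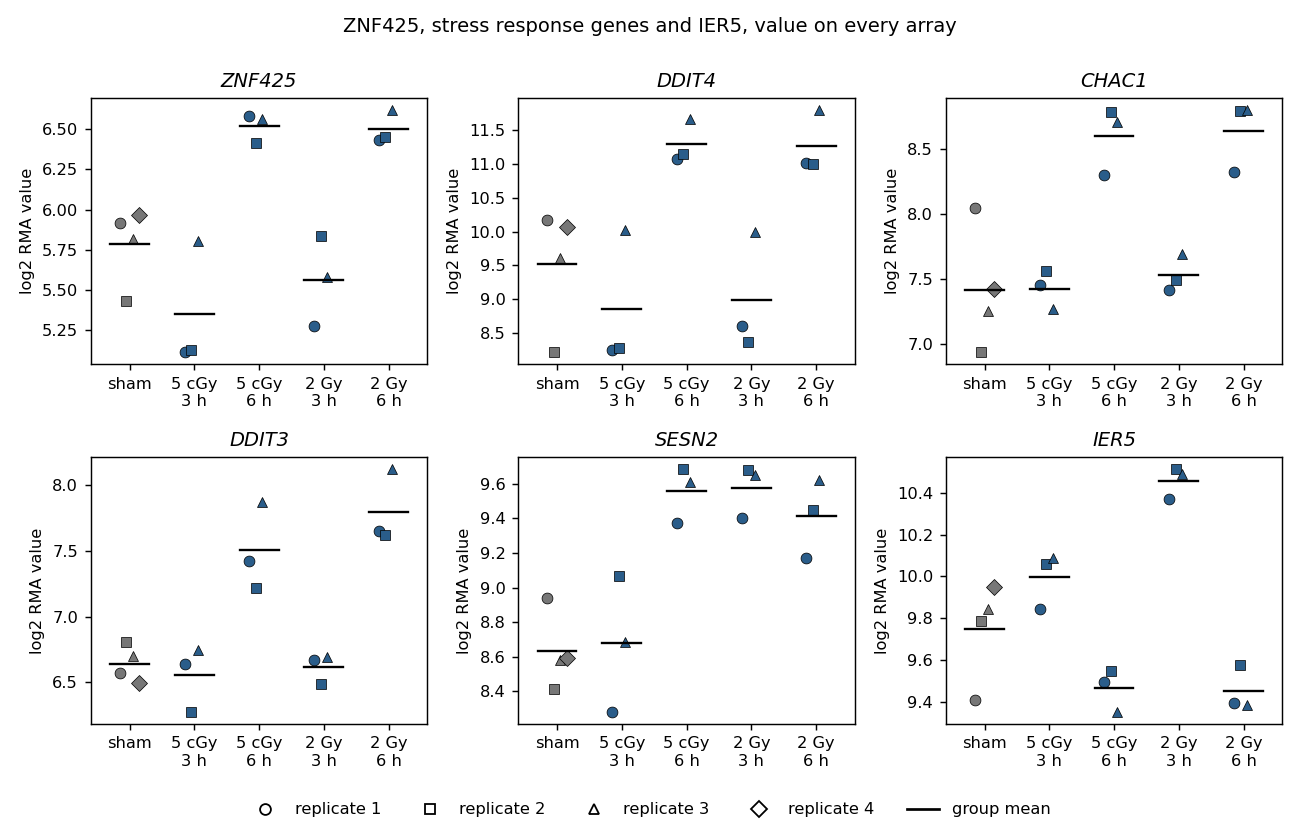
Log2 RMA value of ZNF425, 4 stress response genes and IER5 on every array of sham, 5 cGy and 2 Gy at 3 h and 6 h, with symbols for replicate numbers and bars for group means. ZNF425, DDIT4, CHAC1 and DDIT3 were higher at 6 h after either dose, SESN2 was already at 9.40 to 9.68 at 3 h after 2 Gy, and IER5 was lower at 6 h.

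**Figure D3:**
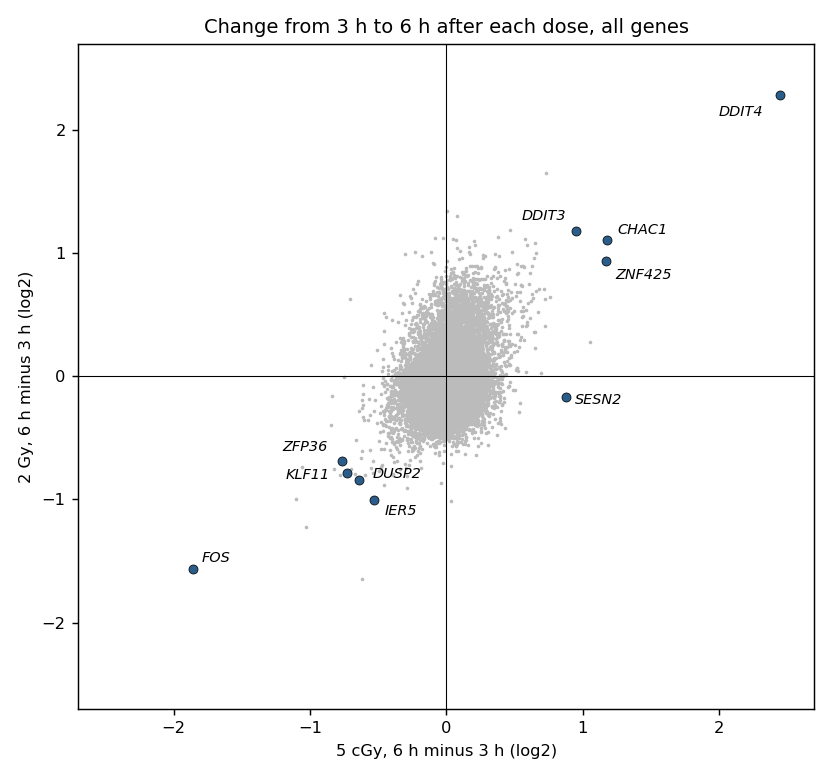
Difference of 6 h minus 3 h (log2) after 5 cGy (horizontal) and after 2 Gy (vertical), 1 point per gene for 18244 genes, with the genes named in the text marked. DDIT4 lies at 2.45 and 2.29, FOS at -1.86 and -1.56, and SESN2 at 0.88 and -0.16.

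For 6 h minus 3 h, 21 of 28 immediate early genes and 15 of 20 MAPK feedback genes had a value below 0, and none of either list was called in the main model. Of the 28 immediate early genes 7 were lower and 0 higher at an unadjusted p under 0.05 for 6 h minus 3 h (background 2.48% lower), with a median of -0.17. They were ZFP36, which destabilises mRNAs with AU-rich elements (-0.77 ± 0.24), IER5 (-0.53 ± 0.11), the AP-1 subunits FOSL2 (-0.48 ± 0.12) and JUNB (-0.36 ± 0.16), KLF10 (-0.46 ± 0.16), IER3 (-0.33 ± 0.12) and SRF (-0.23 ± 0.11). IER5, a regulator of heat shock factor, measured 9.84, 10.06 and 10.09 at 3 h and 9.49, 9.55 and 9.35 at 6 h, with sham overlapping both (9.41, 9.79, 9.84 and 9.95). It was among the 3 smallest p of the lower side (adjusted p = 0.0977), with KLF11, a Krüppel-like factor (9.82, 9.66 and 9.78 at 3 h, 8.92 to 9.16 at 6 h, -0.73 ± 0.15, adjusted p = 0.132), and MB21D2 (-0.62 ± 0.14, adjusted p = 0.186). With the replicate block all 3 passed (adjusted p = 0.0178 for IER5, 0.0496 for KLF11 and 0.00628 for MB21D2). They also passed with array weights and no block (adjusted p = 0.00391, 0.0187 and 0.0412 in the same order). After 2 Gy IER5 fell by 1.01 ± 0.11 from a higher 3 h level (10.37 to 10.51, adjusted p = 1.76e-06).

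FOS itself was uneven. It measured 10.20, 11.28, 11.85 and 11.49 in sham, 11.31, 10.35 and 11.90 at 3 h, and 8.37, 11.05 and 8.55 at 6 h after 5 cGy. At 6 h 2 arrays were far below all others and 1 was within the sham range, so the pooled change of -0.95 carried an interval of -2.5 to 0.59 (adjusted p = 1). The other members with the largest pooled change were ARC (-0.21 ± 0.10), EGR1 (-0.20 ± 0.26), NR4A1 (-0.16 ± 0.12), ZFP36 (-0.16 ± 0.19) and IER2 (-0.13 ± 0.13). Of the 28 members ARC alone had an unadjusted p under 0.05 (1 of 28 lower, background 2.26% lower). EGR1 followed FOS at 6 h, with 9.46, 10.11 and 9.23 against 9.93 to 10.28 in sham. Among 20 MAPK feedback genes 0 were called, and DUSP1 (-0.60 ± 0.26), DUSP2 (-0.64 ± 0.15), SPRY2 (-0.48 ± 0.14) and ERRFI1 (-0.44 ± 0.19) were lower at 6 h than at 3 h at an unadjusted p under 0.05 (4 of 20 lower and 0 higher, background 2.48% lower). In the pooled contrast DUSP1 (-0.23 ± 0.21), DUSP10 (0.22 ± 0.12), PHLDA1 (0.18 ± 0.20), DUSP4 (0.17 ± 0.20) and SPRED1 followed DUSP2 by size, and none passed.

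p53 targets, the class that defines the response to larger doses, did not pass after 5 cGy. CDKN1A, which encodes the cyclin-dependent kinase inhibitor p21, measured 12.90, 12.63, 13.19 and 13.22 in sham, 12.97, 13.01 and 13.19 at 3 h, and 13.07, 13.01 and 13.16 at 6 h. Every irradiated array lay within the sham range, and the pooled change was 0.08 ± 0.08 with an interval of -0.09 to 0.25, whose upper end is 1.19-fold. With the replicate block the pooled change of CDKN1A was 0.16 ± 0.07 (adjusted p = 0.414). The block fits sham replicate 4 exactly, as no other group holds that number, so blocked contrasts with sham rest on the other sham arrays. GDF15, a secreted stress cytokine, measured 8.74, 8.93, 9.73 and 9.89 in sham, 9.37, 9.10 and 9.94 at 3 h, and 9.80, 9.43 and 9.83 at 6 h (0.25 ± 0.24). The sham arrays fell into a low and a high pair, and the irradiated arrays spanned 9.10 to 9.94. MDM2, the ubiquitin ligase that limits p53, was high on the arrays numbered 1 (8.64 in sham, 8.12 at 3 h, 8.39 at 6 h) and ran from 7.04 to 7.82 on the others (0.21 ± 0.23). Among 38 p53 targets measured 0 were called, and 2 were higher at an unadjusted p under 0.05 (background 2.46% higher): SESN2 (0.49 ± 0.19, adjusted p = 0.976) and the phosphatase gene PPM1D (0.22 ± 0.11, adjusted p = 1). The median change was 0.05, against 0.00 over all genes, with a range of -0.27 to 0.49. TP53INP1 (0.40 ± 0.25) and KITLG (-0.27 ± 0.27) were the other large values, and KITLG was split within sham (9.22 and 9.14 against 7.87 and 7.85). For 32 of the 38 genes the upper end of the 95% interval was under 1.5-fold in the model without the replicate block. With the block none of the 38 passed either, and the smallest adjusted p was that of PHLDA3 (0.30 ± 0.08, adjusted p = 0.218).

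The difference between doses was tested directly, at the same times and without the sham arrays. It called 15 genes (0.0822%, 1251 or 6.86% at an unadjusted p under 0.05), all higher after 2 Gy, and 8 of them were p53 targets of the list. CDKN1A measured 13.71, 13.62 and 13.85 at 3 h and 13.75, 13.74 and 13.82 at 6 h after 2 Gy, above every 5 cGy array (0.68 ± 0.07, adjusted p = 2.91e-06). GDF15 ran from 10.41 to 11.46 after 2 Gy against 9.10 to 9.94 after 5 cGy (1.25 ± 0.21, adjusted p = 0.00561). MDM2 (1.02 ± 0.21, adjusted p = 0.041), SESN1 (0.78 ± 0.16, adjusted p = 0.0379), the pro-apoptotic gene BBC3 (0.68 ± 0.13, adjusted p = 0.0159) and the caveolar coat gene CAVIN2 (1.21 ± 0.19, adjusted p = 0.00164) completed the 6 largest. PPM1D (0.67 ± 0.10, adjusted p = 0.00064), the death receptor gene TNFRSF10B (0.42 ± 0.08, adjusted p = 0.0309), the decoy receptor gene TNFRSF10D (0.42 ± 0.09, adjusted p = 0.0379) and PCNA, the replication clamp (0.43 ± 0.08, adjusted p = 0.0102), were also called. Of the other probe sets of the 6 largest, all 18 moved the same way, 15 of them at an unadjusted p under 0.05. Under 14 alternatives CDKN1A was called in 14, GDF15 in 13, MDM2 in 8 and SESN1 in 7. With the GAPDH difference as a covariate 12 genes were called, and MDM2 (0.94, adjusted p = 0.0669) and SESN1 (0.76, adjusted p = 0.0639) were not. None was called lower with or without it, and the smallest p on the lower side without it were those of TAF13 (-0.51 ± 0.12, adjusted p = 0.124), RAB36 (-0.34, adjusted p = 0.152) and WEE1, a kinase that holds back mitosis (-0.24, adjusted p = 0.273). Over the 38 p53 targets the median was 0.28, against 0.02 over all genes, and 20 were higher at an unadjusted p under 0.05 (background 5.85%). Set against the same sham arrays, and so not independent of the 5 cGy contrast, 2 Gy called 17 genes (0.0932%), all higher, with 925 (5.07%) higher and 261 (1.43%) lower at an unadjusted p under 0.05. There CDKN1A measured 0.77 ± 0.08 after 2 Gy beside 0.08 ± 0.08 after 5 cGy, PPM1D 0.89 beside 0.22, and SESN2 0.87 beside 0.49.

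At single times, a split added after the pooled values were seen, the dose contrast called 5 genes at 3 h (0.0274%) and 5 at 6 h (0.0274%). With the GAPDH difference as a covariate it called 5 at 3 h, of which 3 were among the first 5. At 6 h it then called 6, with all 5 kept. BBC3 differed at 3 h (1.21, adjusted p = 0.00187) and measured 0.16 at 6 h (adjusted p = 0.987), while CAVIN2 differed at 6 h (1.75, adjusted p = 0.00174) and measured 0.68 at 3 h (adjusted p = 0.402). CDKN1A was called at both times (0.67 and 0.69). The difference between the dose contrasts at 6 h and at 3 h called 0 genes (0%, smallest adjusted p = 0.314). Neither BBC3 nor CAVIN2 therefore passed as differing between the times. MORN1, from the lower side of the pooled contrast, was called at 3 h (0.59, adjusted p = 0.025), with 5.87, 5.73 and 5.97 after 2 Gy against 5.21 to 5.37 after 5 cGy. This call reuses the 5 cGy arrays on which MORN1 was picked, so it is no separate evidence. In the pooled contrast its 2 other probe sets moved by -0.12 and -0.03, with 0 at an unadjusted p under 0.05. On only the 12 arrays compared, the pooled dose contrast called 1 gene rather than 15, CDKN1A (adjusted p = 0.00991).

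**Figure D4:**
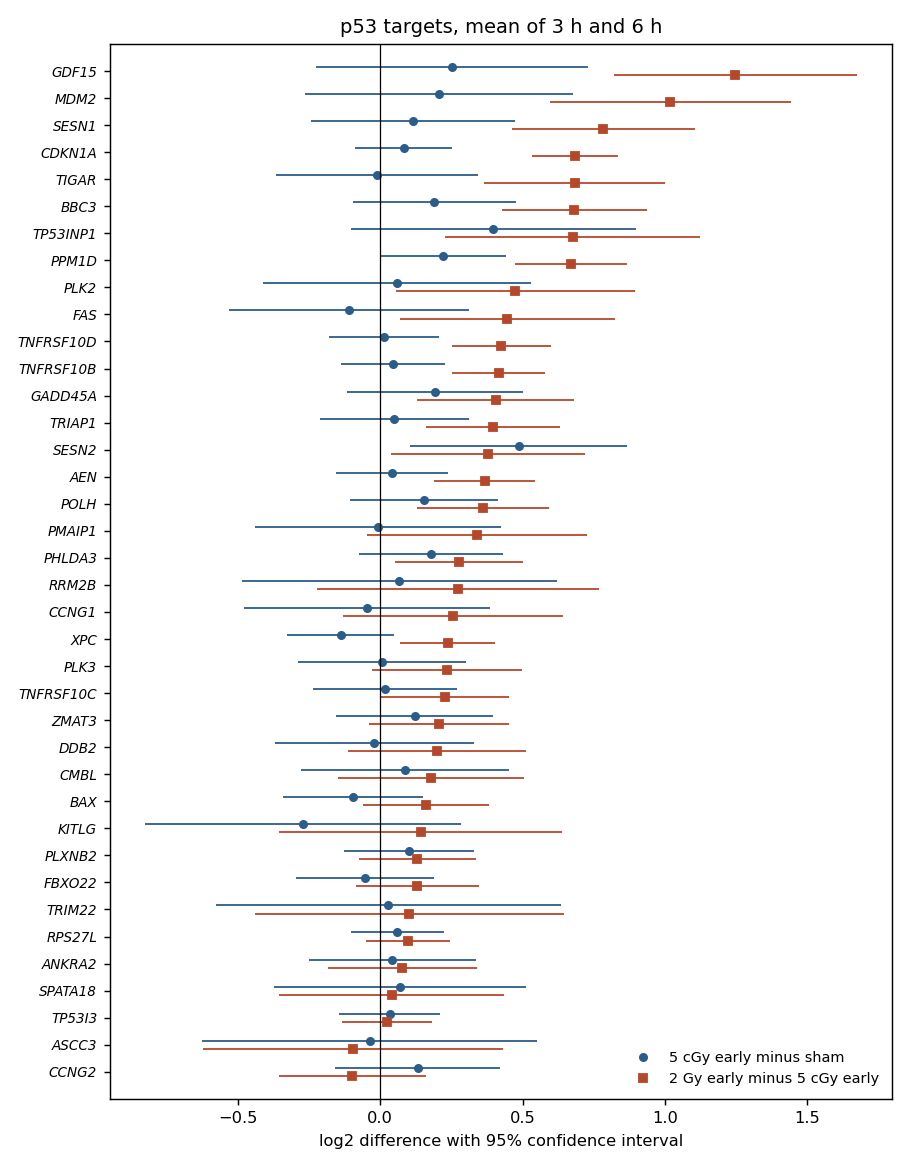
Log2 differences with 95% confidence intervals for 38 p53 targets, as the mean of 3 h and 6 h: 5 cGy minus sham (circles, 6 against 4 arrays) and 2 Gy minus 5 cGy (squares, 6 against 6 arrays), ordered by the latter. For 36 genes the circles' interval includes 0, while for 20 genes the squares' interval lies above 0.

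The genes the study followed by qPCR were read on the arrays, as far as analysed here, and since the study chose them on these samples they are no independent evidence of a direction. The study's qPCR table is titled for 12 h and 24 h after irradiation, so the 3 h and 6 h values here are from other times. Of 6 measured, 0 were called in the pooled contrast. Besides FOS and GDF15, JUN, the partner of FOS, measured 9.30 to 9.84 in sham and 9.31 to 9.89 after 5 cGy (-0.05 ± 0.17). TXNIP, an inhibitor of thioredoxin and glucose uptake, measured 11.06 to 11.94 in sham and 10.84 to 12.02 after 5 cGy (-0.03 ± 0.45). The replication genes RRM1, a subunit of ribonucleotide reductase (-0.06 ± 0.14), and CDC6, a licensing factor (-0.03 ± 0.17), overlapped sham in the same way.

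Repair and damage sensing genes gave no call. Among 20 damage sensors and checkpoint kinases, ATR, the kinase that answers single-stranded DNA (-0.54 ± 0.20), and RAD50, part of the complex that binds broken ends (-0.39 ± 0.17), were lower at an unadjusted p under 0.05 (2 of 20, background 2.26% lower), and the list median was 0.03. Both were highest on sham replicate 1 (5.57 and 7.36). The lists of homologous recombination, end joining and base excision repair had medians from -0.06 to -0.02 over 21, 14 and 20 genes. DNA replication (46 genes, median 0.00), ribosomal proteins (76, 0.01), oxidative phosphorylation (89, 0.02), NRF2 targets (23, -0.00), extracellular matrix (35, 0.02) and cholesterol synthesis (18, 0.01) lay at 0. Mitosis genes had a median of 0.12 over 40 genes, with 32 values above 0, 8 below and 0 at an unadjusted p under 0.05. The largest absolute values were those of SPC25 (0.39) and TOP2A (-0.38). Heat shock genes had the lowest median (-0.12 over 20), with DNAJB4 (-0.32 ± 0.23) and HSP90AA1 (-0.28 ± 0.22) at the head, and both were highest on sham replicate 1 (10.33 and 9.99). In the Wnt list APCDD1, an extracellular Wnt inhibitor (0.37 ± 0.10), AXIN2, a feedback inhibitor (0.30 ± 0.12), and the receptor FZD4 (0.21 ± 0.09) were higher at an unadjusted p under 0.05 (3 of 37, background 2.46% higher, with 0 lower). In all 28 of the 37 had a value above 0 and 9 below. Of the 40 lists 37 had a pooled median within 0.1 of 0.

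**Figure D5:**
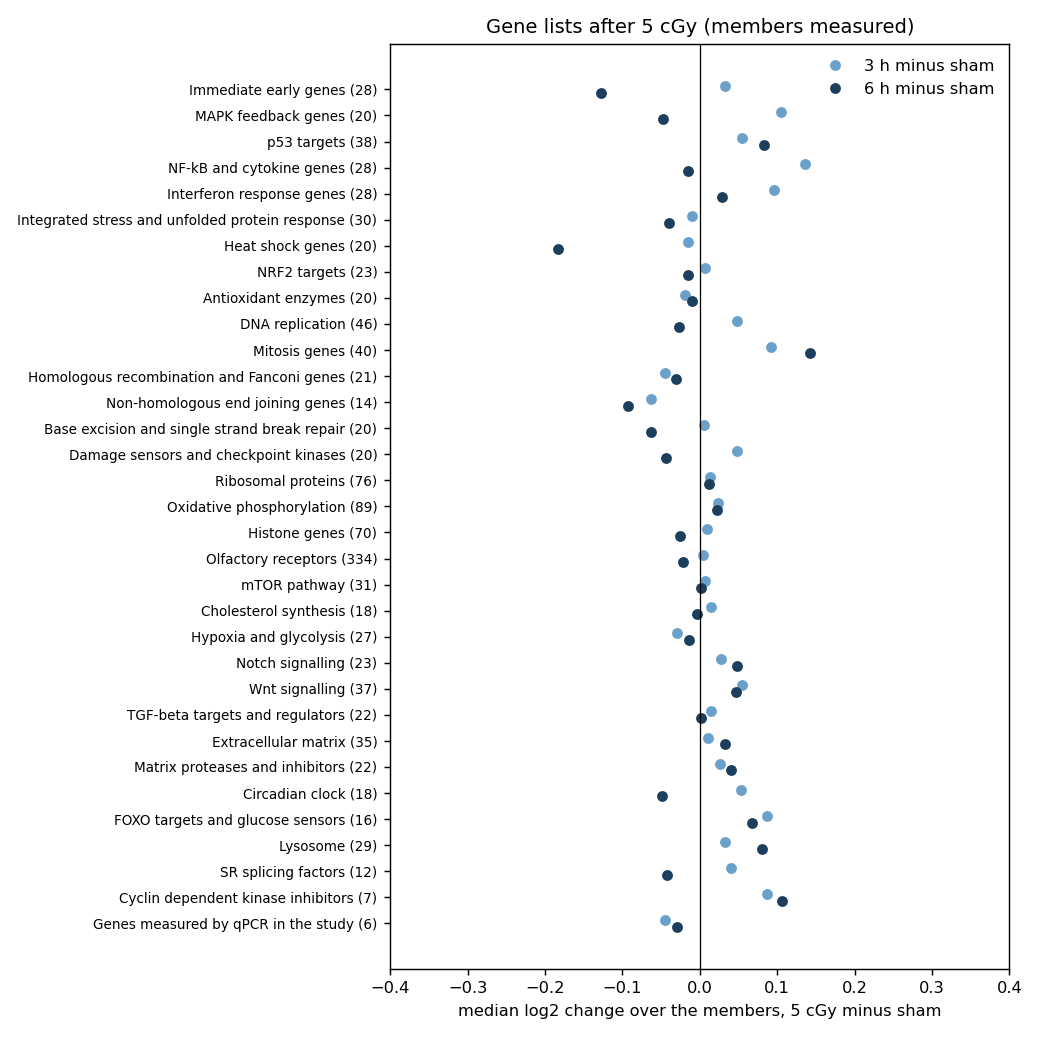
Median log2 change over the members of each gene list (number measured in brackets) at 3 h and at 6 h after 5 cGy against the 4 sham arrays, without the cell type markers. Immediate early genes lie at 0.03 at 3 h and -0.13 at 6 h, heat shock genes at -0.02 and -0.18, and most lists near 0.

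The early arrays were last set against the later arrays of the same dose. The mean of 12 h and 24 h minus the mean of 3 h and 6 h called 501 genes (2.75%), 338 higher (1.85%) and 163 lower (0.893%), without the sham arrays. At an unadjusted p under 0.05, 1906 (10.4%) were higher and 933 (5.11%) lower. The largest falls among called genes were COXFA4L3 (-1.15 ± 0.10), ZNF367 (-0.98), the replication and S phase genes CDC45 (-0.97), CCNE2 (-0.95) and CDC6 (-0.92), and RGS20 (-0.91). CDC6 had measured 8.78 to 9.68 at the early times and 9.03 to 9.41 in sham. Of 46 replication genes 14 were called lower and 0 higher (background 0.893% lower), with a median of -0.25. The largest rises among called genes were DHRS3 (1.24), the activin subunit gene INHBE (1.15), KIF26B (1.01), ARMC9 (0.96), the matricellular gene CCN5 (0.93) and the protease gene MMP11 (0.93). Of the 3 other probe sets of KIF26B 1 moved the same way, and 1 the opposite way at an unadjusted p under 0.05. With the mean of probe sets KIF26B (0.19, adjusted p = 0.272) and CCNE2 (adjusted p = 0.0539) were not called. KIF26B and RGS20 also lost the call without replicate 2 of 3 h or of 6 h. The other probe sets of CDC45 and CDC6 were lower at an unadjusted p under 0.05. DUSP2 was lower still (-0.52, adjusted p = 0.00475) and ZNF425 higher (0.75, adjusted p = 0.0012) than at the early times. The Wnt inhibitor gene APCDD1 was higher by 0.64 (adjusted p = 8.38e-05). The count was 271 without 5 cGy 3 h replicate 2 and 234 without 6 h replicate 2. This contrast rests on 6 against 6 arrays and the sham contrast on 6 against 4, and the difference between their counts was not tested.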

How the data were processed

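Expression was measured on Affymetrix PrimeView arrays in AG01522 fibroblasts, and 40 arrays in 13 groups were used. The authors deposited 1 log2 intensity for each probe set and array, made by RMA, which the submitters' processing notes name without a version. The methods name a custom probe set definition, while the deposited table holds 49495 standard probe sets, of which 102 are controls. A probe set was used where the platform annotation gave 1 gene (45278 probe sets; 1333 had several genes and 2782 none), 45208 of them matching RefSeq with 0 symbols updated. For each of 18244 genes, of which 11825 had several probe sets, the one with the highest mean was taken. Precision is limited by how many arrays each group holds.

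All 40 arrays entered 1 limma model (limma 3.58.1, R 4.3.3) with a mean per group, 27 residual and 5.4 prior degrees of freedom. The pooled contrast was the mean of 5 cGy at 3 h and at 6 h minus sham, so time stayed a factor. Tests were two-sided, adjusted by Benjamini-Hochberg over all genes of a comparison, and called at an adjusted p under 0.05. Errors are SE of the model unless an SD is named. The scripts were tested on simulated data.

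In the pooled contrast, the 12 largest called changes per direction with groups apart were to be named, filled by the smallest p to 8. For 6 h minus 3 h, 2 Gy minus 5 cGy and late minus early, the 6 largest called changes per direction were named, or the 3 smallest p where none was called, for the joint test the 6 smallest p, and from each list up to 4 or 6 members with the largest pooled change. Other genes named with values were chosen after their values were seen. Members, lists and tests were chosen with earlier results of these data known. The labels call arrays of a group biological replicates. Replicate numbers were taken to pair 2 groups where the deviations of every same-numbered pair from the group means correlated above 0.1. This held for 3 h with 6 h after 5 cGy (0.146 to 0.566 over 3 pairs), for 3 h with 6 h after 2 Gy (0.36 to 0.639) and for sham with 3 h (0.242 to 0.666), and the blocked value is given there where it changes a call. Only sham holds a replicate 4, which the block fits exactly, so blocked contrasts with sham leave that array out. Alternatives were a replicate block, a fit on the arrays compared, cyclic loess, the mean of probe sets, filters on the lowest 20% of interquartile ranges and on genes with a mean under the median, array weights, the GAPDH 3' minus 5' difference as a covariate, merging 3 h and 6 h, the study's own cut (an unadjusted p under 0.05 with a change over 1.2-fold), and leaving out each of the 10 sham and early 5 cGy arrays that a comparison uses.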

Additional observations from a re-analysis of the deposited data

Results flagged for a closer look

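ZNF425 was picked out because its change after 5 cGy differed between the 2 times by a test of the difference itself, with 6 h higher than 3 h by 1.174 on the log2 scale (adjusted p = 0.00822, and from 0.000483 to 0.551 over 13 alternatives).

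In the group of 4 sham arrays, a gap of 1 array to the rest larger than Dixon's critical value of 0.829 was found for 13 of 199 genes examined, where chance gives about 1 in 20 groups. On sham replicate 1 these were KLF11 (8.945), FAP (10.37), ZFP36 (10.67), IFIT1 (8.667), CAT (9.256), TK1 (9.654), RICTOR (7.48), RRAGC (10.18) and CDKN2B (9.504). On sham replicate 3 they were ZNF77 (7.155), MORN1 (5.653) and DES (6.466), and on sham replicate 4 MUTYH (7.416). Sham replicate 1 was the array with the largest deviation from its group mean, and its part in the pooled changes of these genes was not tested gene by gene.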

How the results depend on the processing

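For the pooled contrast the count of 0 became 5 with the replicate block (4 higher), 1 with array weights and 368 at the study's threshold, an unadjusted p with a minimal fold (176 higher), with 0 to 1 when single arrays were left out. At 3 h it was 439 at that threshold and 0 in the other settings. At 6 h it was 33 with the replicate block, 2 with the filter on low values, 103 with array weights and 774 at the study's threshold, with 0 to 2 over single arrays left out (1 without sham replicate 1, 2 without sham replicate 3). The joint test gave 17 with the replicate block, 94 with array weights, 913 at the study's threshold (unadjusted p only), and 0 on the arrays compared, with probe sets averaged and with the filter on low values (which removed ZNF425). It gave 0 to 10 over single arrays left out, 10 of them without sham replicate 1, 3 without sham replicate 3 and 0 without 5 cGy 3 h replicate 1 or 2 or any 6 h array. For 6 h minus 3 h the values were 13 with the block, 45 with array weights, 682 at the study's threshold and 0 in the same 3 settings, with 0 to 2 over single arrays left out. For 2 Gy minus 5 cGy they were 40 with the block, 1 on the arrays compared, 8 with the mean of probe sets and 380 at the study's threshold, with 6 to 12 over single arrays left out: 6 without 5 cGy 3 h replicate 2, 8 without 6 h replicate 2 and 9 without replicate 3 of either time. For late minus early they were 1654 with the block, 302 on the arrays compared, 1054 with array weights and 1490 at the study's threshold, with 234 to 484 over single arrays left out. The block leaves sham replicate 4 out of the contrasts with sham, so its counts there combine the block with the loss of that array. The cause of these shifts was not tested.

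Same-numbered arrays of sham, 3 h and 6 h had deviations from their group means that correlated at 0.025 to 0.666 over 9 pairs, 7 of them over 0.1, against a mean of -0.126 for other pairs, and 6 of 9 arrays correlated best with their own number. The mean over same-numbered pairs was 0.349. Deviations sum to 0 within a group, so the mean for other pairs is tied to this one and is no independent reference. Correlations over 0.1 were found for 1 of 3 pairs of sham with 6 h, 10 of 12 pairs of 2 Gy with early 5 cGy and 10 of 12 pairs of late with early 5 cGy, so the numbers were not taken to pair the arrays in these comparisons, nor in the pooled contrast and the joint test, which hold the 6 h arrays and sham. With the block the joint test called DUSP2 (adjusted p = 0.0297), DCP1B (0.00721), LIPJ (0.0292) and ZMIZ1 (0.0274), 2 Gy minus 5 cGy called TAF13 lower (adjusted p = 0.0224), and the pooled change of GDF15 was 0.44 (adjusted p = 0.362). These values, other than that of TAF13, rest on sham without replicate 4. At 3 h, where the numbers pair the arrays with sham, the count stayed at 0. Of 735 values of 47 named results under the alternatives, 677 kept the side of the threshold and any direction, 37 lost a call, 21 gained one and 0 changed sign. Values of the joint test are p values, which have no direction and could not change sign.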
